A study of Mus musculus with 6 samples.

Results

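The heat shock proteins of the cytosol and the mitochondrial matrix are chaperones, proteins that bind unfolded chains and help them reach or regain their shape. All probe sets of the array that its annotation pairs with exactly 1 gene were searched for 10 of these genes: Hspa8, Hspa1b, Hspa4, Hsph1, Hsp90aa1, Hsp90ab1, Dnaja1, Dnajb1, Hspd1 and Hspe1. This gave 22 probe sets of 9 genes, among 22626 probe sets that are not controls and the 12393 genes they measure singly. No probe set was paired with Hsp90ab1 alone, and it is not analysed here. Total RNA of whole livers from C57Bl/6 mice, male and wild-type, was hybridised to Affymetrix Mouse Genome 430A 2.0 arrays, with 2 arrays in each of 3 groups. One group had received recombinant FGF19, one purified FGF15 and one vehicle, each by injection into the jugular vein, and the livers were taken 6 h later with no food given in between. FGF15 is the mouse gut hormone that restrains bile acid synthesis in liver, and FGF19 is its human counterpart. All 3 groups thus share the injection and the fast. No source used here gives the age of the mice, the doses or the make-up of the vehicle. Nor is it said whether the arrays of a group come from separate animals, so the p-values cover the spread between the arrays alone, and that spread may be technical.

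In the cytosol the HSP70 proteins, here the constitutive Hspa8 and the stress-inducible Hspa1b, hold a client protein while they hydrolyse ATP. J-domain proteins such as Dnaja1 and Dnajb1 deliver the client and start that hydrolysis, and the HSP110 proteins Hspa4 and Hsph1 release the nucleotide so that the cycle can begin again. HSP90 proteins, here Hsp90aa1, take over kinases and steroid hormone receptors at a late stage of folding, while Hspd1 and its lid Hspe1 form the folding chamber of the mitochondrial matrix. Many of these genes are switched on by heat shock factor 1, which binds heat shock elements, inverted repeats of the letters GAA, in their promoters.

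The promoter windows of 4 entries are printed because they show the range among the members, from a long heat shock element to none. They are RefSeq sequences on build GRCm38.p6 and run from 250 bases before to 50 bases after an annotated transcription start, in the direction of the gene. Capitals mark the letters GAANNTTC or TTCNNGAA, 2 facing units of the element, searched on both strands. In the first window, at chr1:55087898-55088197 on the plus strand, the matches overlap and join into a run of 4 units that begins at -89 from the Hspe1 start. Hspd1 is transcribed the other way from a start 216 bases off, and a window of it shares 285 bases with that of Hspe1, so that the same letters lie before both of these starts. Hspd1 has another annotated start, whose window shares 4 bases with that of Hspe1 and holds no match, and from that start the element lies within the transcribed part. The second window is that of Hsph1, at chr5:149636287-149636586 on the minus strand, with a match at -33 and an overlapping pair from 36 bases after the start. The third is that of Hspa1b, at chr17:34959189-34959488 on the minus strand, with 1 match at -104. The last is that of Hspa4, at chr11:53300430-53300729 on the minus strand, and these letters are not in it.
Hspe1: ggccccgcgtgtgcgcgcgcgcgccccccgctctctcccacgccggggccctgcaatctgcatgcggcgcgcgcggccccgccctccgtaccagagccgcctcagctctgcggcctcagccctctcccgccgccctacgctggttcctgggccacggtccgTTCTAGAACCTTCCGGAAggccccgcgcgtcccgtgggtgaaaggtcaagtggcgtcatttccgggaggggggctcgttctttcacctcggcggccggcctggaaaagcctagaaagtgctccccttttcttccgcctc
Hsph1: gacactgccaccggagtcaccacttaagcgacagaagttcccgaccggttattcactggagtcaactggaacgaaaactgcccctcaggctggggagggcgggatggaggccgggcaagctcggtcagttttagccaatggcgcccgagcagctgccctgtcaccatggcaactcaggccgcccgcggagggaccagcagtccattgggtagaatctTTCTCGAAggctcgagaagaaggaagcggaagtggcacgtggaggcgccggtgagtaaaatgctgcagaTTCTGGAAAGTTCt
Hspa1b: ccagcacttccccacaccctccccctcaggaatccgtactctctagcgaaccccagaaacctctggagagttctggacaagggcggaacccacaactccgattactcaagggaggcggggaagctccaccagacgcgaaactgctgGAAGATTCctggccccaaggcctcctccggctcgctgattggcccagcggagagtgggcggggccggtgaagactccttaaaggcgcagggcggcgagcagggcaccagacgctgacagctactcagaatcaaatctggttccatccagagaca
Hspa4: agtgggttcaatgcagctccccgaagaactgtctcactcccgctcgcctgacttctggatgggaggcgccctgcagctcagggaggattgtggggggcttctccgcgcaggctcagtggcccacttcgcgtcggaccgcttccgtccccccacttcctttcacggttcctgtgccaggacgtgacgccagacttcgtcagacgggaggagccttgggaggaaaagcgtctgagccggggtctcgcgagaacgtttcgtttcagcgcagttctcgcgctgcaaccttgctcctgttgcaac

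There were 12 windows for 7 of the member genes. The letters GAANNTTC or TTCNNGAA stood in 6 of these windows, and in 15.1% of all 32851 windows. By gene, they stood before 5 of the 7, and before 17.0% of all 27025 genes. In the longer form a further GAA or TTC follows a match at the same spacing of NN and makes 3 units. It stood in 4 windows of Hspd1, Hspe1 and Hsph1, and in 0.603% of all windows and 0.662% of all genes. These 4 windows are not separate stretches. Those of Hspd1 and Hspe1 share the element, and those of Hsph1 overlap and hold the same matches. A window of Dnaja1 held 1 match of the shorter form, at -124, and the windows of Dnajb1 held none. These matches are descriptions of letters and not shown sites.

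The values are deposited signal intensities on a linear scale, and each array had the same mean signal of about 200.1 after 2% was trimmed at each end. Differences are given as log2(signal + 32), which understates the change of low signals. Each has limma's standard error, from a spread estimated over all 3 groups of 2 arrays and drawn towards that of genes of similar signal. A gene or probe set is said to have risen, fallen or changed where its adjusted p was under 0.05, with the adjustment taken over 9685 genes or 16969 probe sets. Each gene is represented by its probe set of highest mean. Median signals were 50.8 to 52.2 with FGF19, 51.3 to 55.2 with FGF15 and 59.4 to 61.4 with vehicle. Centring the arrays on their medians therefore raised the median log2 difference over all genes by 0.15 for FGF19 against vehicle and by 0.12 for FGF15 against vehicle. It turned 609 higher and 704 lower genes with FGF19 into 1218 and 330, and 572 higher and 646 lower genes with FGF15 into 1007 and 356. FGF19 replicate 1 stood apart, with a signal of 32.3 on the 18S ribosomal RNA control against 4.25 to 5.82 on the other arrays, and an actin 3' to 5' ratio of 1.63 against 1.30 to 1.39. The known hormone response was present: Cyp7a1, which sets the rate of bile acid synthesis, fell by 5.31 with FGF19 and fell by 4.44 with FGF15 on the log2 scale.

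The heat shock proteins moved in both directions with either hormone, although with the arrays centred on their medians no member gene was called lower. With FGF19 against vehicle, 2 of 9 genes rose (Hspa1b and Hspa4), 1 fell (Hsp90aa1) and 6 did not pass the test, against a background of 6.29% of all genes higher and 7.27% lower. With FGF15 against vehicle, 2 of 9 rose (Hspa1b and Hspa8), 1 fell (Hsp90aa1) and 6 did not pass, against 5.91% and 6.67%. The median log2 difference of the 9 genes was 0.02 with FGF19 and 0.16 with FGF15, and that of all genes was -0.07 and -0.05. The range over the members was -0.39 to 0.66 with FGF19 and -0.28 to 0.48 with FGF15. Both comparisons use the same vehicle arrays. The arrays of the 2 groups did not overlap for 7 of the 9 genes in each comparison: 4 were higher and 3 lower with FGF19, where 21.4% and 37.2% of all genes were, and 5 were higher and 2 lower with FGF15, where 22.2% and 32.7% were. Of the 22 probe sets, all of which passed the filter on low signals, 5 rose and 4 fell with FGF19 (background 5.15% and 6.34%), and 6 rose and 3 fell with FGF15 (background 4.73% and 5.81%). Without FGF19 replicate 1, Hspa4 was still called higher and Hsp90aa1 lower with FGF19, and Hspa1b was not. Without the intensity trend in the variance prior, the fall of Hsp90aa1 with FGF19 was the only one of these 6 gene calls that passed, and without the filter on low signals Hspa8 (adjusted p = 0.0625) and Hspa1b (0.0831) did not pass with FGF15.

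**Figure D1:**
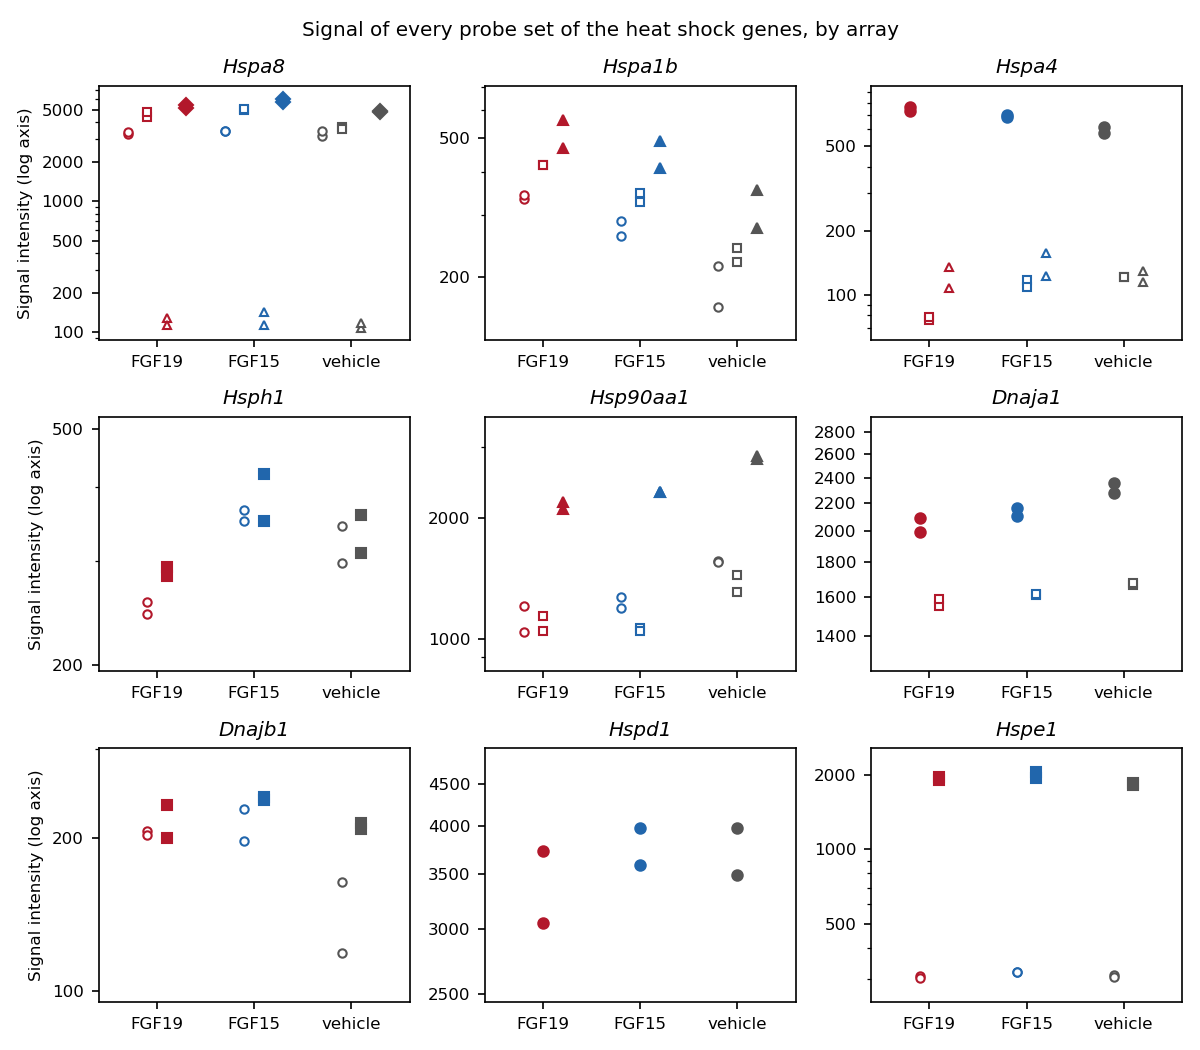
Deposited signal intensity (log axis) of each probe set of the 9 heat shock protein genes on the 2 FGF19, 2 FGF15 and 2 vehicle arrays; marker shapes tell the probe sets of a gene apart, and filled markers are the probe set that stands for the gene. On each probe set, Hspa1b lies higher and Hsp90aa1 lower on all FGF19 and FGF15 arrays than on both vehicle arrays.

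Hspa1b encodes the HSP70 that cells make under stress, and it rose with both hormones on all of its 3 probe sets. On 1452318_a_at, which stands for the gene, the signals were 564 and 468 with FGF19, 489 and 411 with FGF15 and 355 and 276 with vehicle. All 4 hormone arrays lay above both vehicle arrays, while the FGF19 and FGF15 arrays overlapped. The log2 difference from vehicle was 0.66 ± 0.13 with FGF19 (SE, 1.58-fold, limma adjusted p = 0.00774) and 0.48 ± 0.13 with FGF15 (1.39-fold, adjusted p = 0.0380). On 1427126_at the signals were 335 and 343 with FGF19, 263 and 289 with FGF15 and 216 and 164 with vehicle. On 1427127_x_at they were 418 and 419 with FGF19, 329 and 348 with FGF15 and 220.2 and 243 with vehicle. On these 2 probe sets the 3 groups did not overlap, in the order FGF19, FGF15, vehicle. In the fit over probe sets 1427126_at differed from vehicle by 0.75 ± 0.12 with FGF19 (adjusted p = 0.00282) and by 0.48 ± 0.12 with FGF15 (adjusted p = 0.0270). The same values for 1427127_x_at were 0.78 ± 0.08 with FGF19 (adjusted p = 0.000389) and 0.49 ± 0.08 with FGF15 (adjusted p = 0.00522). On 1452318_a_at the FGF19 call ended without vehicle replicate 2 (adjusted p = 0.0654) or FGF19 replicate 1 (0.0732), and the FGF15 call without vehicle replicate 2 (0.227) or FGF15 replicate 1 (0.176). With FGF19, 1427126_at and 1427127_x_at passed in all 6 fits that left out an array. With FGF15, the call of 1427127_x_at ended without vehicle replicate 1 (0.0574), and that of 1427126_at without vehicle replicate 2 (0.166), FGF15 replicate 1 (0.0570) or FGF15 replicate 2 (0.143). Hspa1a, a neighbouring gene of nearly the same coding sequence, had a probe set of its own with signals of 45.9 and 46.9 with FGF19, 9.78 and 28.8 with FGF15 and 29.6 and 27.2 with vehicle, and it did not pass the test with FGF19 (adjusted p = 0.255) or FGF15 (adjusted p = 0.455). The suffix _x_at of 1427127_x_at marks probes that can hybridise with related transcripts. Cross-hybridisation between Hspa1b and Hspa1a was not tested.

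Hspa8, the constitutive HSP70 that also uncoats clathrin vesicles, rose with FGF15 but on only 2 of its 4 probe sets. On 1455789_x_at, which stands for the gene, the signals were 5121 and 5385 with FGF19, 5676 and 6045 with FGF15 and 4817 and 4913 with vehicle. The 3 groups did not overlap, with FGF15 highest. The log2 difference from vehicle was 0.11 ± 0.07 with FGF19 (95% interval -0.04 to 0.26, adjusted p = 0.324) and 0.27 ± 0.07 with FGF15 (1.20-fold, adjusted p = 0.0298). Under quantile normalization Hspa8 also passed with FGF19 (0.19, adjusted p = 0.0154), and with the arrays centred on their medians it was 0.26 there (adjusted p = 0.0671). The FGF15 call ended without any single vehicle or FGF15 array (adjusted p from 0.0706 to 0.205). On 1420623_x_at the signals were 4358 and 4765 with FGF19, 4930.1 and 5001 with FGF15 and 3653 and 3577 with vehicle, again with no overlap between hormone and vehicle arrays. This probe set rose with FGF19 (0.33 ± 0.07, adjusted p = 0.0142) and with FGF15 (0.45 ± 0.07, adjusted p = 0.00274), and the FGF19 call ended without vehicle replicate 1 (0.103) or 2 (0.117). On 1420622_a_at the signals were 3272 and 3347 with FGF19, 3401 and 3432 with FGF15 and 3133 and 3424 with vehicle, and the vehicle arrays spanned the FGF19 arrays. The dim 1431182_at read 113 to 129 with FGF19, 113 to 144 with FGF15 and 108 to 118 with vehicle. Neither of these passed the test, with log2 differences of 0.01 and 0.07 with FGF19 and 0.06 and 0.14 with FGF15. Both probe sets that rose carry the suffix _x_at, which marks probes that can hybridise with related transcripts. Whole liver was measured, and fewer cells of a type and less RNA per cell cannot be told apart.

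Hspa4, an HSP110 protein that frees nucleotide from HSP70, gave opposite calls on different probe sets. On 1416146_at, which stands for the gene, the signals were 727 and 766 with FGF19, 701 and 686 with FGF15 and 576 and 617 with vehicle. The groups did not overlap, with FGF19 highest. The log2 difference from vehicle was 0.31 ± 0.07 with FGF19 (1.24-fold, adjusted p = 0.0165) and 0.21 ± 0.07 with FGF15 (adjusted p = 0.0855). With the arrays centred on their medians Hspa4 passed with FGF15 too (0.32, adjusted p = 0.0204). The FGF19 call ended without vehicle replicate 1 (0.138), vehicle replicate 2 (0.0526) or FGF19 replicate 2 (0.0854). On 1416147_at the signals were 76.3 and 78.8 with FGF19, 118 and 109 with FGF15 and 121 and 121 with vehicle, so that here the FGF19 arrays were lowest. The annotation lists the same transcript for it as for 1416146_at. This probe set fell with FGF19 (-0.48 ± 0.11, adjusted p = 0.0239) and was not called with FGF15 (-0.07 ± 0.11, adjusted p = 0.742). Its FGF19 call ended without any single vehicle or FGF19 array (adjusted p from 0.0788 to 0.115), and with the arrays centred on their medians (-0.33, adjusted p = 0.0886). The third, 1435194_at, read 135 and 108 with FGF19, 158 and 123 with FGF15 and 115 and 130 with vehicle, and its groups overlapped. The mean over the 3 probe sets differed by -0.06 with FGF19 (adjusted p = 0.635), so that the direction given for Hspa4 rests on the choice of probe set.

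Hsph1, the inducible HSP110 protein, had the largest difference between the hormones among the 9 genes. On 1423566_a_at the signals were 244 and 256 with FGF19, 365 and 349.6 with FGF15 and 298 and 344 with vehicle. The FGF19 arrays lay below the vehicle arrays and the FGF15 arrays above them. On 1425993_a_at, which stands for the gene, they were 282 and 293 with FGF19, 351 and 420 with FGF15 and 309 and 358 with vehicle, and here FGF15 and vehicle overlapped. Against vehicle neither probe set passed with FGF19 (-0.32 ± 0.09 with adjusted p = 0.0509 for 1423566_a_at, -0.19 ± 0.10 with adjusted p = 0.255 for the gene) or with FGF15 (0.15 ± 0.09 with adjusted p = 0.369, and 0.19 ± 0.10 with adjusted p = 0.284). Between the hormones 1423566_a_at was lower with FGF19 than with FGF15, at a log2 difference of -0.47 ± 0.09 (95% interval -0.67 to -0.26, adjusted p = 0.0211), and that of the gene, which did not pass, was -0.38 ± 0.10 (-0.61 to -0.15, adjusted p = 0.0739). The gene passed between the hormones as the mean of its probe sets (-0.42, adjusted p = 0.0252), with the replicate block (0.0376) and without FGF15 replicate 1 (0.0482), and 1423566_a_at passed with FGF19 against vehicle under the stricter filter (0.0395). The call of 1423566_a_at between the hormones ended without FGF15 replicate 1 (0.124) or 2 (0.0729) or FGF19 replicate 1 (0.141) or 2 (0.0697).

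Hsp90aa1, the inducible cytosolic HSP90, fell with both hormones on all of its 3 probe sets. On 1438902_a_at, which stands for the gene, the signals were 2103 and 2188 with FGF19, 2315 and 2321 with FGF15 and 2792 and 2847 with vehicle. The 3 groups did not overlap, with vehicle highest and FGF19 lowest. The log2 difference from vehicle was -0.39 ± 0.06 with FGF19 (1.31-fold lower, adjusted p = 0.00246) and -0.28 ± 0.06 with FGF15 (1.21-fold lower, adjusted p = 0.0155). On 1426645_at the signals were 1036 and 1203 with FGF19, 1193 and 1273 with FGF15 and 1562 and 1552 with vehicle. On 1437497_a_at they were 1046 and 1138 with FGF19, 1065 and 1048 with FGF15 and 1437 and 1309.7 with vehicle. All hormone arrays lay below both vehicle arrays on these 2 probe sets, and the FGF19 and FGF15 arrays overlapped. In the fit over probe sets 1426645_at differed by -0.47 ± 0.08 with FGF19 (adjusted p = 0.00551) and -0.33 ± 0.08 with FGF15 (adjusted p = 0.0297), and 1437497_a_at by -0.32 ± 0.07 with FGF19 (adjusted p = 0.0225) and -0.37 ± 0.07 with FGF15 (adjusted p = 0.0127). With FGF19, the call of 1426645_at ended without vehicle replicate 1 (0.0535) and that of 1437497_a_at without vehicle replicate 1 (0.183), vehicle replicate 2 (0.0547) or FGF19 replicate 1 (0.102). With FGF15, that of 1426645_at ended without any single vehicle or FGF15 array (from 0.0751 to 0.156) and that of 1437497_a_at without vehicle replicate 1 (0.128), FGF15 replicate 1 (0.0538) or FGF15 replicate 2 (0.0750). As a gene, the call of Hsp90aa1 with FGF19 held in all 6 fits that left out an array, and with FGF15 it ended without any single vehicle or FGF15 array (adjusted p from 0.0725 to 0.123). With the arrays centred on their medians the difference was -0.24 with FGF19 (adjusted p = 0.0542) and -0.16 with FGF15 (adjusted p = 0.204), so that neither fall passed there. Of the probe sets, 1 of 3 passed with FGF19 under that centring (1426645_at) and none with FGF15. Without the intensity trend, none of the 3 passed with either hormone in the fit over probe sets, while the FGF19 call of the gene held.

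The J-domain proteins Dnaja1 and Dnajb1, which bring clients to HSP70, did not pass the test as genes. Dnaja1 read 1996 and 2095 with FGF19, 2103 and 2163 with FGF15 and 2275 and 2359 with vehicle on 1416288_at, its representative. The groups were apart, with vehicle highest, and the log2 difference was -0.18 ± 0.06 with FGF19 (adjusted p = 0.0963) and -0.12 ± 0.06 with FGF15 (adjusted p = 0.276). Its other probe set, 1460179_at, was in the same order, at 1552 and 1589 with FGF19, 1608 and 1617 with FGF15 and 1666 and 1677 with vehicle. The difference of Dnaja1 depended on the scaling: under quantile normalization the gene passed with FGF19 (-0.27, adjusted p = 0.00647), and with the arrays centred on their medians it was -0.031 with FGF19 (adjusted p = 0.855) and -0.0011 with FGF15, while 1460179_at turned to 0.06 with FGF19 and 0.07 with FGF15. Dnajb1, the inducible HSP40, read 200.02 and 232 with FGF19, 238 and 241 with FGF15 and 209 and 215 with vehicle on 1416756_at, which stands for it. There the vehicle arrays lay between the FGF19 arrays, and the difference was 0.02 ± 0.09 with FGF19 (adjusted p = 0.899) and 0.16 ± 0.09 with FGF15 (adjusted p = 0.340). On 1416755_at it read 206 and 203 with FGF19, 198 and 229 with FGF15 and 119 and 165 with vehicle, with all hormone arrays above both vehicle arrays. This probe set of Dnajb1 rose with FGF15 (0.51 ± 0.13, adjusted p = 0.0383) and fell just short with FGF19 (0.46 ± 0.13, adjusted p = 0.0538). With FGF19 it passed under quantile normalization (0.0417), centring on medians (0.0140), the stricter filter (0.0454), the replicate block (0.0351) and without vehicle replicate 2 (0.0264). Its difference between the hormones was -0.05 ± 0.13 (adjusted p = 0.911). The FGF15 call ended in 5 of the 6 fits that left out an array, all but the one without vehicle replicate 2 (adjusted p up to 0.232 without vehicle replicate 1).

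The mitochondrial chaperonin genes, neighbours transcribed in opposite directions, did not pass the test with either hormone. Hspd1, the chamber, read 3054 and 3730.1 with FGF19, 3593 and 3983 with FGF15 and 3982 and 3492 with vehicle. All groups overlapped, and the log2 difference was -0.14 ± 0.10 with FGF19 (95% interval -0.37 to 0.09, adjusted p = 0.406) and 0.02 ± 0.10 with FGF15 (-0.21 to 0.25, adjusted p = 0.928). Hspe1, the lid, read 1900.2 and 1952 with FGF19, 1939 and 2049 with FGF15 and 1817 and 1858 with vehicle on 1450668_s_at. The hormone arrays lay above the vehicle arrays, by 0.07 ± 0.06 with FGF19 (-0.07 to 0.21, adjusted p = 0.529) and 0.12 ± 0.06 with FGF15 (-0.03 to 0.26, adjusted p = 0.284). Its other probe set, 1422579_at, read 307 and 301 with FGF19, 319 and 319.6 with FGF15 and 312 and 307 with vehicle. These intervals bound a change of either gene but do not show that there was none.

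**Figure D2:**
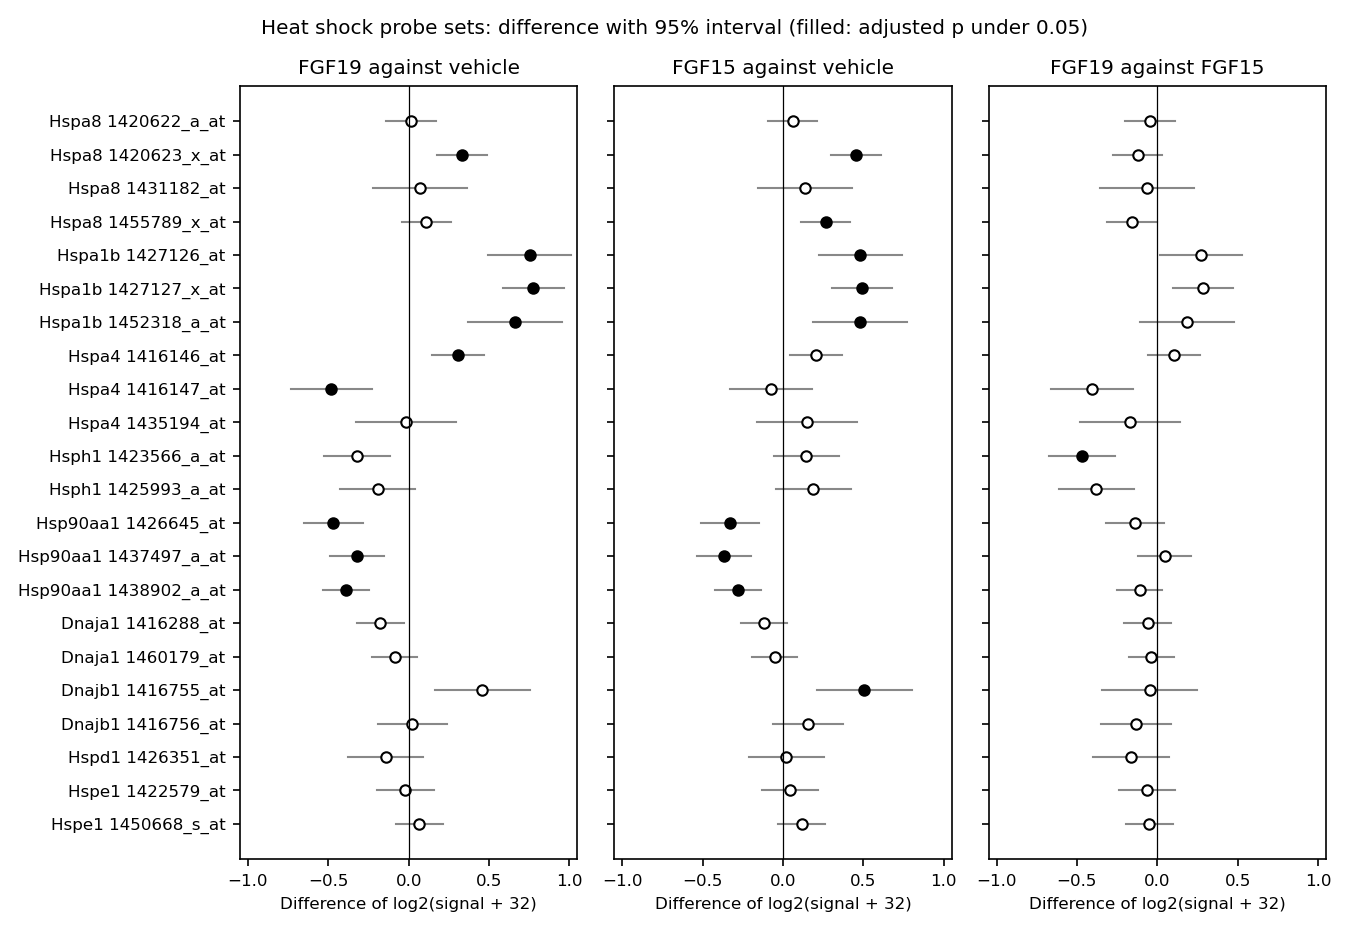
Log2 differences of the 22 probe sets for FGF19 against vehicle, FGF15 against vehicle and FGF19 against FGF15; points are limma estimates, bars are 95% intervals, and filled points have an adjusted p under 0.05 in the fit over probe sets. The 3 Hspa1b probe sets lie right of 0 and the 3 Hsp90aa1 probe sets left of 0 in both comparisons with vehicle, and only 1423566_a_at of Hsph1 is filled in the comparison of the hormones.

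Between the hormones themselves, none of the 9 genes passed the limma test (0 higher and 0 lower, against 2.41% and 1.89% of all genes), and 2 (Hsph1 and Hspa8, both lower with FGF19) had an unadjusted p under 0.05, as did 16.6% of all genes. Of the 22 probe sets, 1 was lower with FGF19 (Hsph1) and none higher, against 1.34% and 1.97% of all probe sets. The FGF19 and FGF15 arrays were apart for 6 of 9 genes, 1 higher with FGF19 and 5 lower, where 20.1% and 25.8% of all genes were. Hspa1b differed by 0.18 ± 0.13 (95% interval -0.10 to 0.47) on the probe set that stands for it, and Hsp90aa1 by -0.11 ± 0.06 (-0.25 to 0.03). The other Hspa1b probe sets were higher with FGF19, with the arrays apart. They differed by 0.28 on 1427127_x_at (0.10 to 0.47, limma adjusted p = 0.119) and 0.27 on 1427126_at (0.01 to 0.53, adjusted p = 0.296). Those intervals lay above 0, but no probe set of Hspa1b or Hsp90aa1 passed between the hormones. Over the 9 genes the median log2 difference was -0.11, with a range of -0.38 to 0.18, and that of all genes was -0.02.

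The rest of the cytosolic and mitochondrial chaperone system was read from lists of 78 genes, of which 64 were tested. With FGF19, 10 rose and 3 fell (20.3% changed, against 13.6% of all genes), and with FGF15, 11 rose and 4 fell (23.4%, against 12.6%). Their median log2 difference was 0.05 with FGF19 and 0.02 with FGF15. Several of these calls rested on the settings. With FGF19, Cct4 (limma adjusted p = 0.0490) ended in 7 of 10 alternatives that left out no array compared. Dnajb6 (0.0443) ended in 6 of them. With FGF15, Dnajb6 and Trap1 (both 0.0498) ended in 6 of 10. Chordc1 and Hspb1 ended in none of these with either hormone. Leaving out 1 array also ended calls, among them Bag1, Stub1 and Tcp1 with FGF19 and Bag4, Dnajb2 and Cct3 with FGF15. Among 4 relatives of HSP70 and HSP110, 1 rose with each hormone, Hspa14, an HSP70 of the ribosome-bound complex that receives new chains. Hspa14 read 292 and 269 with FGF19, 199 and 204 with FGF15 and 135 and 152 with vehicle, with no overlap. It rose by 0.83 ± 0.10 with FGF19 (adjusted p = 0.000396) and 0.42 ± 0.10 with FGF15 (adjusted p = 0.0202), and the FGF15 call ended without vehicle replicate 1 (0.136), FGF15 replicate 1 (0.0577) or FGF15 replicate 2 (0.0847). Among 13 J-domain proteins, 1 rose and 1 fell with FGF19, and 3 rose and 1 fell with FGF15. Dnajb4, an HSP40 close to Dnajb1, read 292 and 254 with FGF19, 362 and 479 with FGF15 and 256 and 219 with vehicle. The FGF15 arrays were apart from the rest, and Dnajb4 rose with FGF15 (0.74 ± 0.13, adjusted p = 0.00478) and did not pass with FGF19 (0.18 ± 0.13, adjusted p = 0.410).

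Among 9 cofactors of HSP70, 3 rose with FGF19, and 2 rose and 1 fell with FGF15. That is 33.3% changed with each hormone, where 13.6% of all genes changed with FGF19 and 12.6% with FGF15. Bag3, a stress-inducible cofactor that directs clients to autophagy, read 472 and 442 with FGF19, 485 and 511 with FGF15 and 352 and 365 with vehicle. All hormone arrays were above the vehicle arrays, and Bag3 rose by 0.32 ± 0.08 with FGF19 (adjusted p = 0.0189) and 0.44 ± 0.08 with FGF15 (adjusted p = 0.00418). The FGF19 call of Bag3 ended without vehicle replicate 1 (0.123), vehicle replicate 2 (0.0725) or FGF19 replicate 1 (0.115). Of 11 co-chaperones of HSP90, 1 rose with each hormone, Chordc1, and none fell (9.09% changed). Chordc1 read 358 and 326 with FGF19, 385 and 380.2 with FGF15 and 219 and 238 with vehicle, and it rose by 0.52 ± 0.08 with FGF19 (adjusted p = 0.00287) and 0.67 ± 0.08 with FGF15 (adjusted p = 0.000701). The hormone arrays did not overlap the vehicle arrays for Chordc1.

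The 4 small heat shock proteins tested split, with 1 up and 1 down with each hormone. Hspb1 (HSP25), which holds unfolded proteins without ATP, read 268 and 292 with FGF19, 279 and 313 with FGF15 and 524 and 427 with vehicle. It fell by 0.70 ± 0.11 with FGF19 (adjusted p = 0.00199) and fell by 0.62 ± 0.11 with FGF15 (adjusted p = 0.00397) on the log2 scale, and passed under every alternative run. Hspb8, the partner of Bag3, read 1867 and 1916 with FGF19, 1969 and 1955 with FGF15 and 1380.0 and 1410.3 with vehicle. Hspb8 rose by 0.43 ± 0.06 with FGF19 (adjusted p = 0.00126) and 0.48 ± 0.06 with FGF15 (adjusted p = 0.000687), and the mean over its probe sets did not pass with FGF19 (0.28, adjusted p = 0.109) or FGF15 (0.28, adjusted p = 0.122). Of the 8 subunits of the cytosolic chaperonin CCT, 1 rose and 1 fell with each hormone (25% changed). Of 13 other mitochondrial chaperones and proteases, 2 rose and none fell with each (15.4%). Of all genes, 13.6% changed with FGF19 and 12.6% with FGF15. Hsf1 had no probe set of its own and is not analysed here. Hsf2 was under the filter, at 3.19 and 4.44 with FGF19, 1.37 and 1.74 with FGF15 and 1.01 and 9.72 with vehicle.

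A list of 10 genes of the endoplasmic reticulum, where secreted proteins are folded, held paralogues of these proteins and others such as Sdf2l1 and Sil1. Of these 10 genes, 6 rose with FGF19 and 5 with FGF15, where 6.29% and 5.91% of all genes rose. None fell, and their median log2 difference was 0.41 with FGF19 and 0.35 with FGF15. Hspa5 (BiP), the HSP70 of that compartment, read 5013 and 5372 with FGF19, 5383 and 5248 with FGF15 and 3625 and 3826 with vehicle. It rose by 0.48 ± 0.07 with FGF19 (adjusted p = 0.00145) and 0.51 ± 0.07 with FGF15 (adjusted p = 0.000991), with all hormone arrays above the vehicle arrays. Hsp90b1, its HSP90, read 5205 and 5477 with FGF19, 4953 and 5184 with FGF15 and 4719 and 5039 with vehicle, and on this probe set, which stands for the gene, it did not pass with FGF19 (0.13 ± 0.07, adjusted p = 0.252) or FGF15 (0.06 ± 0.07, adjusted p = 0.670). Another Hsp90b1 probe set read 2696 and 3064 with FGF19, 2671 and 3317 with FGF15 and 2133 and 2064 with vehicle, with all hormone arrays above the vehicle arrays. It rose in the fit over probe sets, by 0.45 ± 0.10 with FGF19 (adjusted p = 0.0214) and 0.50 ± 0.10 with FGF15 (adjusted p = 0.0133). As a gene Hsp90b1 passed with FGF19 under quantile normalization (0.22, adjusted p = 0.0114) and as the mean of its probe sets (0.29, adjusted p = 0.0457). Hyou1, its HSP110, did not pass either, at 0.13 ± 0.15 with FGF19 and 0.19 ± 0.15 with FGF15, though it passed with FGF15 without FGF15 replicate 2 (0.49, adjusted p = 0.0181).

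**Figure D3:**
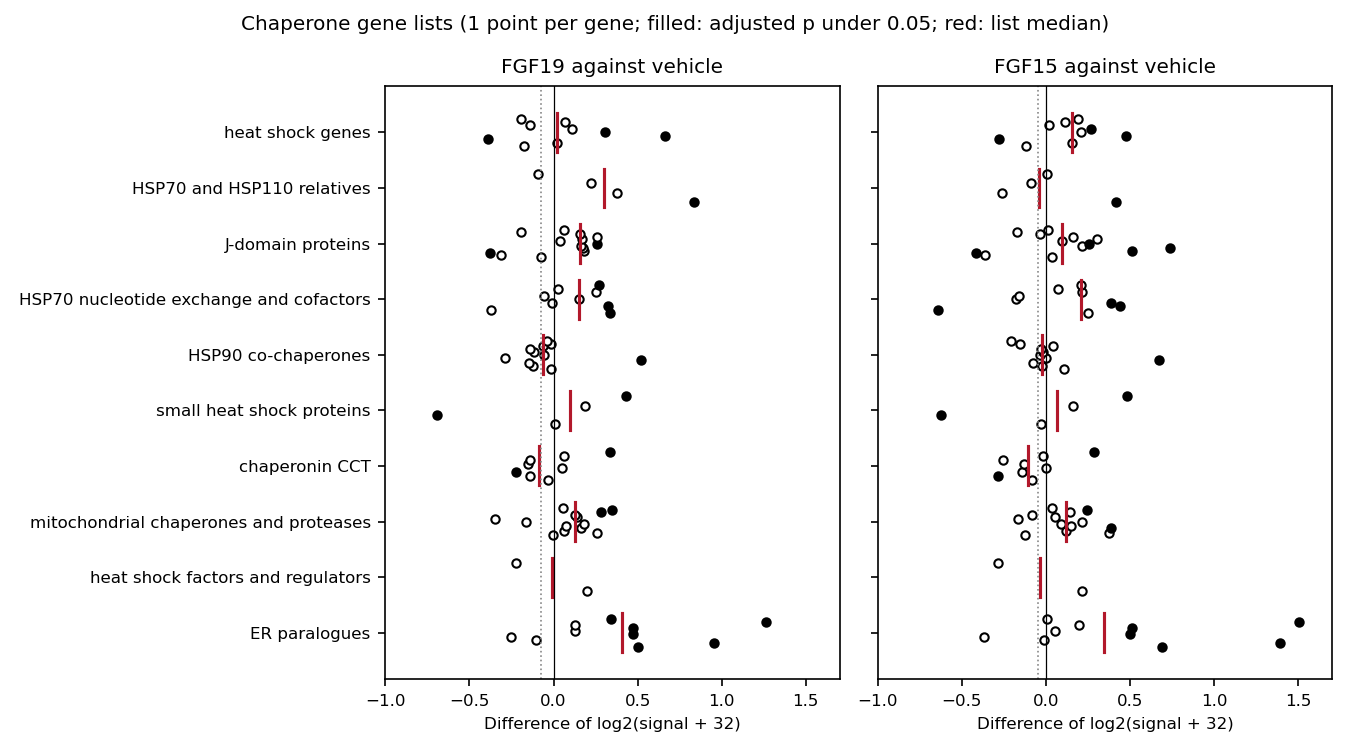
Log2 differences of single genes by list, for FGF19 against vehicle and FGF15 against vehicle; each point is a gene, red bars are list medians, the dotted line is the median of all genes and filled points have an adjusted p under 0.05. The members spread from -0.39 to 0.66 with FGF19 around a median of 0.02. The genes of the endoplasmic reticulum, labelled ER paralogues though not all are paralogues, have a median of 0.41.

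Markers of some other liver cells moved on the same arrays. The summed signal of 11 Kupffer cell and macrophage markers was 3499 to 3534 with FGF19, 3484 to 3608 with FGF15 and 6427 to 6525 with vehicle. Of the 11, 9 fell with FGF19 and 10 with FGF15, where 7.27% and 6.67% of all genes fell. Marco, among the 11, was higher on the FGF19 arrays (100.5 and 88.8) than on the vehicle arrays (64.9 and 77.0) and did not pass. The 4 hepatocyte markers summed to 31869 to 43191 with FGF19, 39955 to 42953 with FGF15 and 47346 to 47936 with vehicle. None of these 4 passed the limma test, while all 4 had an unadjusted p under 0.05 with FGF19, as did 28.2% of all genes, and 0 had one with FGF15. Of 7 stellate cell markers, 2 fell with FGF19 and 3 with FGF15, and of 4 neutrophil markers, 1 fell with FGF19 and 2 with FGF15. Not all stellate markers went down. Lrat read 44.1 and 37.3 with FGF19, 82.0 and 81.3 with FGF15 and 46.7 and 52.4 with vehicle. Reln read 394 and 375 with FGF19, 383 and 375 with FGF15 and 355 and 320 with vehicle. Neither was called higher. Of 8 endothelial markers, 0 changed with FGF19 and 1 fell with FGF15, and of 3 cholangiocyte markers 0 changed with either. Of 2 erythroid markers, 1 rose with FGF19 and 0 with FGF15. No marker was listed at 0, and the markers of T and B cells summed to 88.2 to 164 over 7 genes across the 6 arrays. The part of these cells in the values of Hspa1b, Hspa4, Hspa8 and Hsp90aa1 was not tested.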

How the data were processed

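The values used were signal intensities, 1 per probe set and array, deposited by the authors in a single table of 6 arrays. Per the values in that deposited table, each array had been scaled to a trimmed mean of about 200.1, and no further scaling was applied. The software that summarised the probes, its version and any detection calls were not given in the sources used here. Of 22690 probe sets, 64 were controls. The platform annotation paired 20380 with 1 gene, of which 20351 were named through their Entrez identifier, and probe sets with several genes were given no name. Arrays were placed in groups by their titles.

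Signals were converted to log2(signal + 32). For the fit over genes, the probe set of highest mean over the 6 arrays stood for each gene, and a filter at percentile 25 of the mean log2 values (signal near 14.0) removed 2708 of 12393 genes and kept 9685. The limma package, version 3.58.1, was run in R 4.3.3 (lmFit, eBayes with an intensity trend) on 1 model of all 6 arrays with group as the only term, 3 residual and 6.83 prior degrees of freedom. Two-sided p-values were adjusted by Benjamini-Hochberg over all genes of a comparison. The same model was fitted over 16969 probe sets. Precision is limited by the number of arrays. The steps were tested on simulated data with differences larger than that of any member and with spreads shuffled across genes. That test therefore does not cover calls of the size seen for the members. Tables and figures were made with Python 3.11.15, pandas 2.3.3 and matplotlib 3.10.9.

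The members, the chaperone and marker lists and the tests were chosen with earlier results of these data known. Named were all members and, of each other list, up to 4 genes with the smallest p against vehicle, besides Hsf1, Hsf2, Hspa5, Hsp90b1, Hyou1, Cyp7a1 and Egr1. The text gives values for a share of these. The 17 alternatives were a pseudocount of 16 or 64, quantile normalization, centring on medians, no filter or one at the 50th percentile, the mean of a gene's probe sets, all probe sets, no intensity trend, the replicate number as a block, only the arrays compared, and each array left out in turn. Promoter windows came from RefSeq, and no window of Hspa8, Hsp90aa1 or Hsp90ab1 was used.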

Additional observations from a re-analysis of the deposited data

Results flagged for a closer look

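These genes differed between the FGF19 and FGF15 arrays themselves, in limma's test of that difference. The log2 difference of FGF19 against FGF15 was -0.47 for Hsph1 on 1423566_a_at in the fit over probe sets, where the gene's other probe set did not pass. Dnajb4 was lower with FGF19 than with FGF15, at -0.56 (adjusted p = 0.0396). That call ended without either vehicle array (0.0536 and 0.0535), FGF15 replicate 2 (0.171), FGF19 replicate 1 (0.100) or FGF19 replicate 2 (0.208). Hspa14 was higher with FGF19 by 0.42 (adjusted p = 0.0404), and this call ended whichever array was left out (0.0505 to 0.252). As the mean of its probe sets Hspa14 did not pass between the hormones either. Dnajb9, a J-domain protein of the endoplasmic reticulum, was lower with FGF19, at -0.44 (adjusted p = 0.00240, and 0.0720 without the intensity trend). Against vehicle Dnajb9 rose with FGF19 (0.95) and with FGF15 (1.39). Outside the chaperones, Cyp7a1 was lower with FGF19, at -0.87 (adjusted p = 0.000372), and Egr1, an immediate early transcription factor, was higher by 2.92 (adjusted p = 1.32e-07).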

How the results depend on the processing

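Calls of single heat shock proteins rested on few arrays. Of the 3 gene calls with FGF19, 1 held in all 6 fits that left out an array (Hsp90aa1), and of the 3 with FGF15, 0 did. Over those 6 fits the genes called with FGF15 numbered 0 to 2 higher and 0 to 1 lower. With FGF19 they numbered 0 to 2 higher and 1 lower, and between the hormones 0 higher and 0 to 1 lower. Probe sets called numbered 2 to 5 higher and 0 to 3 lower with FGF15, 3 to 5 higher and 1 to 4 lower with FGF19, and 0 higher and 0 to 1 lower between the hormones. Without the filter, 0 genes and 2 probe sets were higher with FGF15. Without the intensity trend, with FGF15 0 genes were higher and 0 lower, and 2 probe sets higher and 0 lower. With FGF19 that setting left 0 genes and 2 probe sets higher and 1 probe set lower, which was 1416147_at of Hspa4. Hsp90aa1 stayed lower there as a gene and on none of its probe sets. Between the hormones that setting left 0 probe sets lower. Centred on medians, 3 genes and 7 probe sets were higher and 0 genes and 0 probe sets lower with FGF15, and 2 genes and 6 probe sets were higher and 0 genes and 1 probe set lower with FGF19. Quantile normalization gave 3 genes and 7 probe sets higher and 2 genes and 4 probe sets lower with FGF19. Of all 9685 genes, 654 were higher and 585 lower with FGF19 under that setting. The mean of a gene's probe sets gave 1 gene higher with FGF19 and 1 lower between the hormones (Hsph1, -0.42, adjusted p = 0.0252), and it turned Hspa4 with FGF19 to -0.064. Over all alternatives, 421 values of single member genes kept direction and call, and 7 changed sign with neither value called. The 421 include values of genes called under neither setting. A further 24 values lost their call, 6 gained one and 1 reversed. Why these calls ended was not tested.

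Over all genes, leaving out an array gave 271 to 577 higher and 267 to 622 lower with FGF15, 316 to 613 and 283 to 747 with FGF19, and 137 to 192 and 97 to 170 between the hormones. No trend gave 242 and 393 with FGF15, 297 and 434 with FGF19, and 110 and 53 between the hormones. Over all probe sets 986 were lower with FGF15 and 1075 with FGF19. Centring gave 1007 and 356 with FGF15 and 1218 and 330 with FGF19.

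Titles number the arrays 1 and 2 in each group, and the deviations of same-numbered arrays correlated at 0.08 for FGF15 and vehicle, -0.02 for FGF19 and vehicle and 0.05 for FGF19 and FGF15 over 9685 genes, so the numbers were not taken to pair samples. With the replicate number as a block, 1 gene was lower between the hormones (Hsph1, -0.38, adjusted p = 0.0376). With 2 arrays a group, the median standard error over all genes was 0.13.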
